A study of Mus musculus with 11 samples.

Results

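The early cortical projection neuron transcription factors were taken as 9 genes, Tbr1, Bcl11b, Fezf2, Sox5, Tle4, Neurod2, Neurod6, Nfib and Bhlhe22, each found by its symbol in both expression tables. They are 9 of the 20475 genes listed in each table, and all 9 passed the filter on low values in both. Poly(A) RNA of embryonic mouse brain was sequenced at embryonic day 12.5 in 11 libraries to compare gene expression with and without Kif20a, a mitotic kinesin of neural progenitors. The sample labels call the tissue forebrain and its cells neural, and the study's text calls it cortex. Whether each library came from a single embryo is not stated in the sources used here, so the tests below measure the spread between libraries only.

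The germline comparison held 3 wild-type libraries (WT1, WT2 and WT3) and 3 libraries of littermates without functional Kif20a (KO1, KO2 and KO3). These knockout-first mice carry a LacZ and neomycin cassette in Kif20a in every cell, and the line descends from 1 embryonic stem cell clone, crossed to C57BL/6J. The inducible comparison held 2 control libraries, labelled wild type, and 3 knockout libraries from mice whose cassette had been removed. Its knockouts carried Nestin-CreERT2 and Kif20a fl/fl, and its controls were Kif20a fl/fl littermates. Tamoxifen was given to the pregnant females of this comparison on consecutive days, E9.5 and E10.5, so that controls were exposed to it as well. Recombination there depends on the Nestin driver, which is active in neural progenitors, and vessels, blood and mesenchyme are not expected to recombine through it. Each table was normalized on its own, and no level was tested across them.

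Projection neurons of the cerebral cortex are glutamatergic cells that arise from radial glia of the dorsal telencephalon, directly or through intermediate progenitors. Their first-born members settle in the preplate and the deep layers, where a small network of transcription factors separates cells that project within the cortex, to the thalamus and to the brainstem and spinal cord. Many of these factors switch on as cells leave the cycle, so their transcripts also mark the presence of young cortical neurons. Nfib, also made in radial glia, and Tle4, also used outside the cortex, are examples of members that are not confined to such neurons.

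Kif20a itself checked the labels. It stood at 2456, 2295 and 2680.2 normalized counts in the germline WT1, WT2 and WT3 and at 409, 374 and 503 in KO1, KO2 and KO3. Its log2 fold change there was -2.54 (limma, standard error 0.15, adjusted p = 0.00845). In the inducible comparison it stood at 4760.15 and 4844 in the controls and at 3125, 2915 and 2853 in the knockouts, a log2 fold change of -0.70 (limma, standard error 0.06, adjusted p = 0.0107). Every knockout library lay below every wild-type library of its comparison, and in the inducible knockouts most of the transcript was still present.

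None of the 9 members passed the study's thresholds in the germline comparison, a fold change of at least 1.5 with an unadjusted P of at most 0.05 in limma. Among all 13938 genes tested, 93 were called lower (0.667%) and 289 higher (2.07%). No member had an unadjusted P of at most 0.05, against 751 of all genes. None had an adjusted p under 0.05, which 1 gene of all tested had (0.00717%), and the smallest adjusted p of a member was 0.796. In no member did all knockout libraries lie below or above all wild-type libraries, a separation found in 7.55% of all genes as lower and in 5.90% as higher. The fitted mean, on the log2 scale, was lower in the knockouts for 8 members and higher for 1, where 7810 of the 13938 genes were lower. The median log2 fold change was -0.47 beside -0.04 over all genes tested. The mean of the normalized counts themselves was higher in the knockouts for Tbr1, Bcl11b and Neurod2 as well as for Fezf2. These averages hide a wide scatter between libraries, which the values below show gene by gene. In bulk tissue, fewer cells of a type and less RNA per cell cannot be told apart.

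Neurod2, Neurod6 and Bhlhe22 are basic helix-loop-helix factors of young glutamatergic neurons. Neurod2 and Neurod6 are activators that follow the proneural Neurog2, and Bhlhe22 is a repressor that shapes the identity of deep-layer neurons and their axon tracts. Neurod2 stood at 1758, 1270.0 and 479.5 normalized counts in WT1, WT2 and WT3 and at 149, 3215 and 438 in KO1, KO2 and KO3. Neurod6 read 6005, 2756 and 679 in those of the wild type against 218, 5949 and 650.1 in the knockouts. Bhlhe22 gave 881, 709.6 and 193 against 61.7, 711 and 209. For all these genes KO1 was the lowest library, WT3 and KO3 lay close to each other, and KO2 lay among or above the highest wild-type values, so the groups overlapped. Within the wild type alone the highest library exceeded the lowest by 3.67-fold for Neurod2, 8.85-fold for Neurod6 and 4.56-fold for Bhlhe22, and within the knockouts by 21.6-fold, 27.2-fold and 11.5-fold. The log2 fold changes were -0.78 for Neurod2 (95% confidence interval -3.30 to 1.74), -1.24 for Neurod6 (-4.23 to 1.74) and -1.23 for Bhlhe22 (-3.42 to 0.96), and the limma adjusted p-values were 0.867, 0.837 and 0.796. These intervals span a large decrease as well as an increase.

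Basic helix-loop-helix factors bind E-boxes, written CANNTG, a motif that reads alike on both strands apart from its middle letters. The starts of Neurod2 and Neurod6 are shown because these genes moved together across the germline libraries, and that of Fezf2 because it was the member whose fitted mean was higher there. Each run holds the 250 bases before the RefSeq start site on the gene's own strand, with E-boxes in capitals. The sequences are those of RefSeq for GRCm38.p6, and the positions are from an exact, single match in NCBIM37 (mm9), the build of the deposited tables. They are chr11:98190960-98191209 for Neurod2, chr6:55631258-55631507 for Neurod6 and chr14:13178380-13178629 for Fezf2, all on the minus strand.
Neurod2: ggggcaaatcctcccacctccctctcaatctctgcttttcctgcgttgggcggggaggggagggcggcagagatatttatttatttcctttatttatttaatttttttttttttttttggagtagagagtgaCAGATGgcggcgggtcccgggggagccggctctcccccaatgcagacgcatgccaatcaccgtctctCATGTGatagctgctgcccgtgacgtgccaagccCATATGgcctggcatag
Neurod6: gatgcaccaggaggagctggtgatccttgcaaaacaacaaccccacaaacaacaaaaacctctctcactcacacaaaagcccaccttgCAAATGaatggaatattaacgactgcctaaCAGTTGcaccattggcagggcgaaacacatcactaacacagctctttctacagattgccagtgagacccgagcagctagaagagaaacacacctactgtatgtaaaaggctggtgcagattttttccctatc
Fezf2: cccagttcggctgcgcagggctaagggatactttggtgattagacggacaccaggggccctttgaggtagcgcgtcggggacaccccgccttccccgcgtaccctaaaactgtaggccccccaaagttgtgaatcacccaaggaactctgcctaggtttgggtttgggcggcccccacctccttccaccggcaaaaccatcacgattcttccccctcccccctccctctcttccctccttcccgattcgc
Neurod2 has 3 E-boxes in this window, with CAGATG beginning 118 bases before the start site, CATGTG 51 bases and CATATG 17 bases before it. Neurod6 has 2, with CAAATG at 162 bases and CAGTTG at 132 bases, and Fezf2 has 0. Of the 32851 windows of this length in the RefSeq table, 66.2% hold at least 1 CANNTG, 14.4% hold CAGATG or, as its reverse complement, CATCTG, and 3.46% hold CATATG. The table had entries for 7 of the 9 members, and Nfib and Bhlhe22 were without one. Tbr1 had 1 E-box, Bcl11b and Sox5 had 0, and Tle4, with a pair of start sites, had 2 at one of them and 0 at the other. A match describes letters only, and binding was not measured.

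Tbr1, Bcl11b, Fezf2 and Sox5 divide the early projection classes between them. Tbr1 is a T-box factor of preplate and layer 6 neurons that project to the thalamus, and it holds back Fezf2 there. Tbr1 stood at 2400.5, 3354 and 2951 normalized counts in WT1, WT2 and WT3 and at 848, 6293 and 1624 in KO1, KO2 and KO3. KO1 and KO3 lay below all wild-type libraries and KO2 above all of them, and the wild-type spread of 1.40-fold was the narrowest of the members. Its log2 fold change was -0.48 (95% confidence interval -2.03 to 1.07, limma adjusted p = 0.867).

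Bcl11b, also known as Ctip2, is a zinc finger factor that directs the axons of corticospinal neurons, downstream of the zinc finger factor Fezf2. Bcl11b read 2324, 2745 and 1861 in the wild type against 1158, 5345 and 1292 in the knockouts. Fezf2 read 1211, 878 and 782 against 647, 2832 and 885. Sox5, an HMG-box factor that times the appearance of deep-layer classes, read 2382, 1660.0 and 1300.5 against 1109, 2352 and 1105. KO2 again carried the highest value of Bcl11b and Fezf2, and for Sox5 it lay just under WT1. KO1 and KO3 lay under every wild-type library for Bcl11b and Sox5, whereas for Fezf2 KO3 lay inside the wild-type range. The log2 fold changes were -0.19 for Bcl11b, 0.32 for Fezf2 and -0.28 for Sox5, with limma adjusted p-values of 0.939, 0.883 and 0.861.

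Tle4 is a Groucho co-repressor found in layer 6 neurons and also used outside the cortex. Tle4 stood at 915, 1718 and 1657 in the wild-type libraries and at 1324, 1347 and 1246 in the knockouts. Its pattern differed from that of the other members, because WT1 was the lowest library and the knockouts lay within 1.08-fold of each other. The log2 fold change was -0.08 (95% confidence interval -0.66 to 0.50, limma adjusted p = 0.944). Nfib, a nuclear factor I protein made in radial glia as well as deep-layer neurons, stood at 17618, 12011 and 6382 in wild types and at 3453, 26262 and 5561 in the knockouts. KO2 was above and KO1 and KO3 were below all 3 wild-type libraries, and the log2 fold change was -0.47 (95% confidence interval -2.23 to 1.29, limma adjusted p = 0.881).

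**Figure D1:**
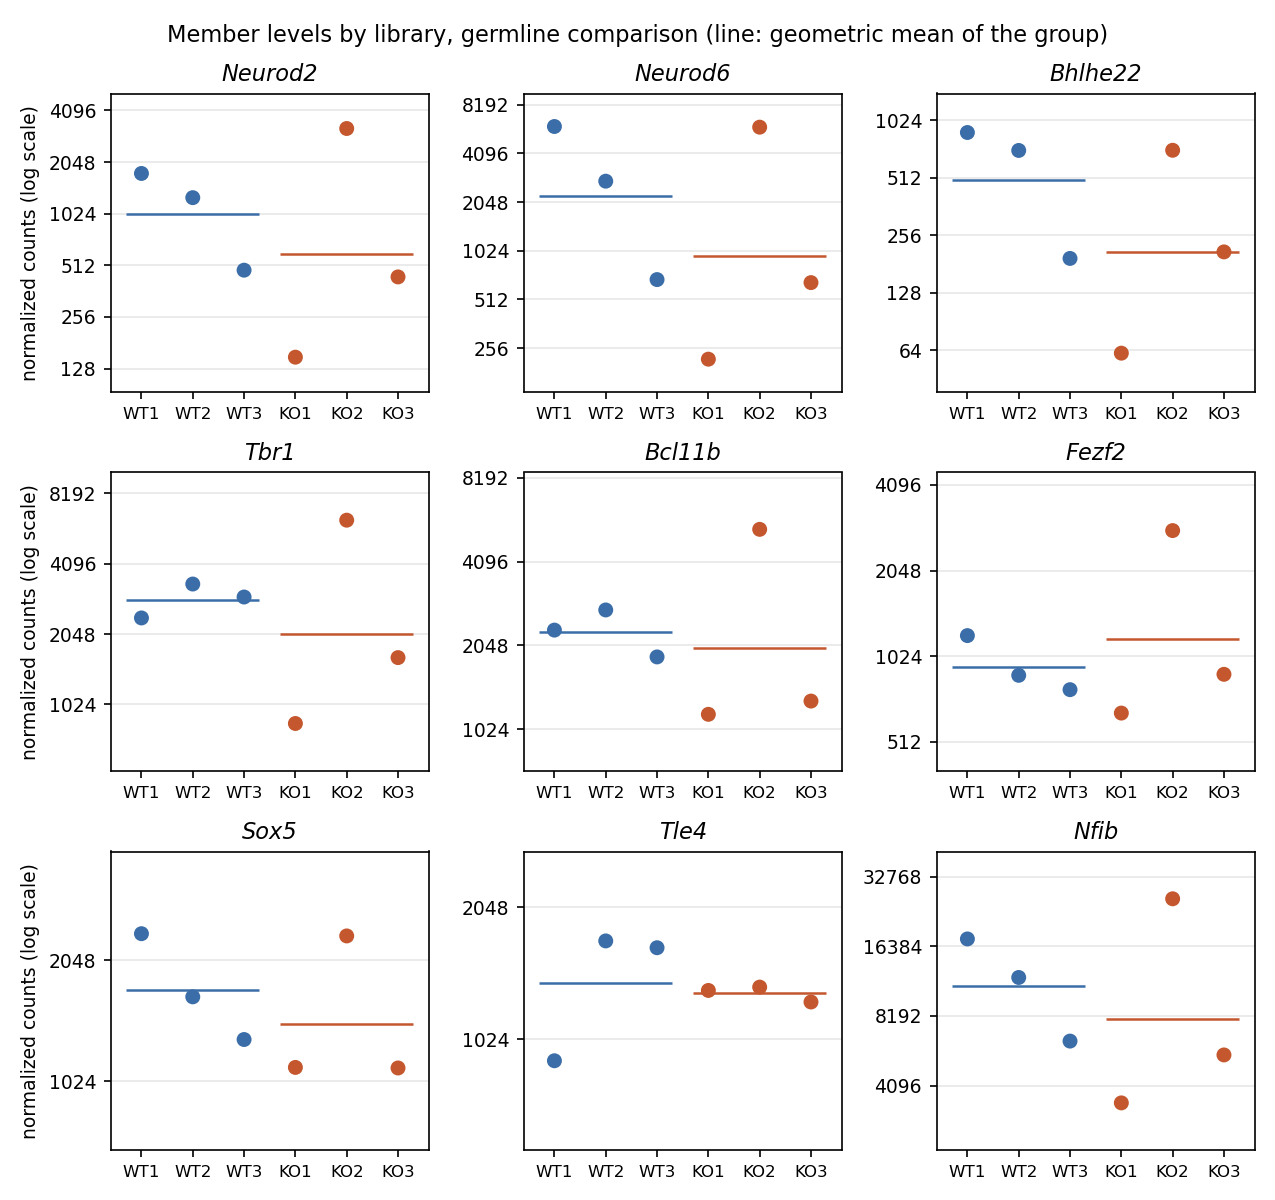
Level of each member in the 6 libraries of the germline comparison. Each point is a library, the vertical axis gives normalized counts on a log2 scale that differs between panels, and lines mark the geometric mean of each group. KO1 is the lowest library in 7 panels and KO2 the highest in 5. The lowest library is WT1 for Tle4 and, narrowly, KO3 for Sox5. Tle4 is flat among the knockouts but not among the wild types.

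Counted over members, KO1 was the lowest library for 7 of 9 and KO2 the highest for 5 of 9. WT1 was highest for 3 and WT2 for 1. All 9 members lay under the wild-type mean in KO1 and in KO3, and 8 of 9 lay above it in KO2, the exception being Tle4. The median log2 difference of the members from the wild-type mean was 0.46, 0.27 and -0.41 in WT1, WT2 and WT3 and -1.68, 1.23 and -0.82 in KO1, KO2 and KO3. Over all genes tested these medians lay between -0.05 in KO1 and 0.02 in WT3. The residual standard deviation of the members on the log2 scale ran from 0.36 for Tle4 to 2.05 for Neurod6, beside a median of 0.27 over all genes tested. Tle4 ranked at percentile 64.7 of all genes by this spread and Neurod6 at percentile 99.3.

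The member counts turned on KO2. Without it, 7 of the 9 members passed both thresholds as lower, in a fit where 642 of 14008 genes (4.58%) were called lower. These were Tbr1 (log2 fold change -1.29), Bcl11b (-0.90), Sox5 (-0.64), Neurod2 (-2.0), Neurod6 (-2.57), Nfib (-1.33) and Bhlhe22 (-2.11), with limma adjusted p-values from 0.134 for Bcl11b to 0.264 for Sox5, so that none passed at 0.05 after adjustment. Over all settings tried, the adjusted p-values of the members lay between 0.134 and 0.998. Without KO1, no member was called, the median of the members moved from -0.47 to 0.13, and Neurod6, Bhlhe22 and Sox5 shrank to -0.19, -0.36 and -0.10. Without KO3 the median was -0.22 and no member was called. Library weights estimated by limma gave 5 members called lower, where 3.47% of all genes were, again with no adjusted p under 0.05.

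KO1 and KO2 also stood apart in genes that mark other regions and cell types. The 5 dorsal telencephalon genes had a median difference of -0.67 in KO1 and 0.69 in KO2, and -0.15 in KO3. The diencephalon genes moved in another way, with a summed level of 1118, 1534 and 2204 normalized counts in the wild type against 4977, 1838 and 1662 in the knockouts. Tcf7l2, a thalamic factor, read 283, 560.03 and 593 against 3212, 453 and 638, and it is the most abundant gene of that list on average only through KO1. Lhx9, the most abundant in the other 5 libraries, read 718, 766 and 1282 against 748, 1049 and 794, inside the wild-type range in every knockout. The median difference of the diencephalon genes was 3.32 in KO1, 0.51 in KO2 and 0.17 in KO3, so that KO1 had the lowest dorsal and the highest diencephalic median. Irx2, a gene in this median, passed the filter on low values only through KO1. It read 0.15, 2.72 and 2.68 against 86.4, 4.34 and 4.03. Gbx2, also in this median, had a wild-type mean of 9.57 and passed only through the knockouts, at 208, 19.7 and 7.05.

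Non-neural markers set KO2 apart in each list, and KO1 most clearly in mesenchyme. Cranial mesenchyme genes summed to 6320.0, 4809 and 8774 normalized counts across WT1, WT2 and WT3 and to 21472, 572 and 10694 across KO1, KO2 and KO3. Col3a1, a fibrillar collagen and the most abundant of them, read 2387, 1838 and 4037 against 8253, 2.46 and 4489, and Foxc2, named after its values were seen, was at 0 in KO2 as 1 of the 9 genes. KO2 was the lowest library for each of the 9 genes, but not near 0 for all: Prrx1, also named after its values were seen, read 728, 735 and 818 against 1868, 427 and 979.6. Microglia genes summed to 683, 478 and 414 in wild types and to 449.8, 18.4 and 512 in the knockouts, with Csf1r, the receptor these cells need, at 177, 142 and 124 against 101, 6.96 and 152. Endothelial genes summed to 1646, 1215 and 2467 against 2901, 702 and 1941, led by the VEGF receptor Kdr. Erythroid genes summed to 162458, 100922 and 126855 against 155787, 36228 and 165078, led by Hba-a2, whose level is uncertain because it shares reads with its near-identical copy Hba-a1. Both copies enter these sums with nearly equal values, so the sums may hold the same reads more than once. KO2 had the lowest sum of each of these 4 lists. In limma no gene of them was called and none passed the unadjusted P threshold, with median log2 fold changes of -0.51 for mesenchyme, -1.51 for microglia, -0.28 for endothelium and -0.24 for erythroid genes. The same count of 0 held for the 5 dorsal genes (median 0.09) and the 6 of 7 diencephalon genes that were tested (1.37). The latter include Irx2, tested only through its level in KO1, and Gbx2, tested only through the knockouts.

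The summed level of genes that respond to low oxygen was high in the same pair of knockout libraries. Of 11 such genes, 9 were called higher, where 2.07% of all genes were, with a median log2 fold change of 1.83. Adm, called, and Car9, not called, had wild-type means of 5.98 and 4.31. They passed the filter on low values only through the knockouts. Car9 read 40.15 in KO1 but 3.48 in KO2, inside the wild-type range. Each of the 9 had a limma adjusted p of 0.779, so none passed at 0.05. Their summed level was 10449, 10511 and 10627 in the wild type against 40878, 56448 and 13133 in the knockouts. Ldha, a lactate dehydrogenase subunit and the most abundant of them, read 6401, 6591 and 6119.6 against 16659, 15954 and 8146. The other 8 called were Pdk1, P4ha1, Adm, Bnip3, P4ha2, Slc2a1, Ankrd37 and Vegfa. The count fell to 2 without KO1, to 3 without WT1 and to 4 without WT2, and it was 9 without KO2. KO1 and KO2, both high for this list, sat at opposite ends for the members. The part of tissue composition or oxygen response in the member values was not tested.

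**Figure D2:**
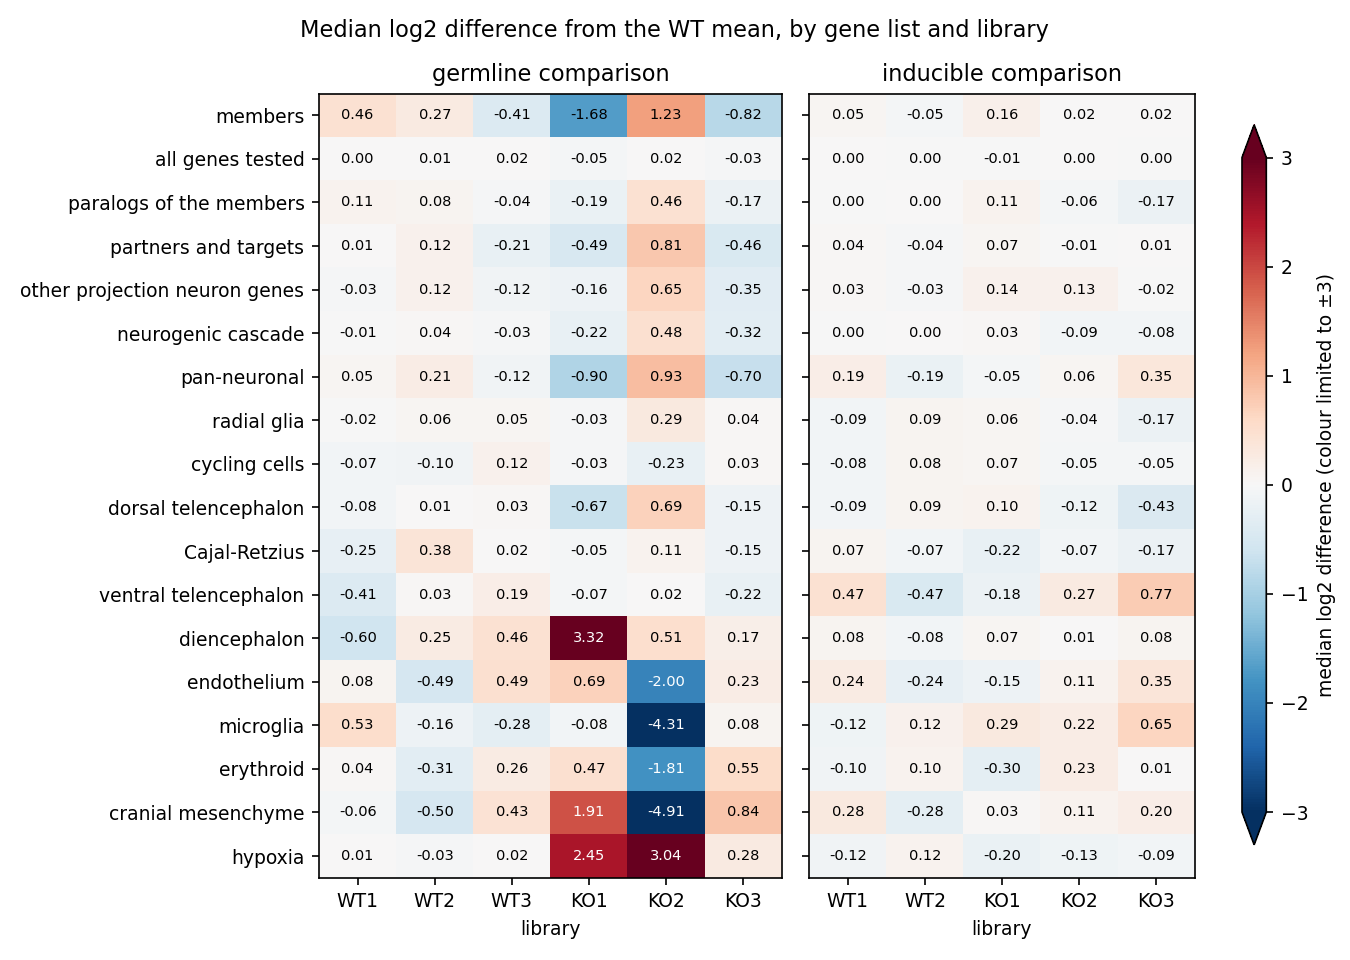
Median log2 difference from the wild-type mean for each gene list (rows) in each library (columns) of both comparisons, with the value printed in each cell and colour limited to 3 in either direction. In the germline panel the members are lowest in KO1 (-1.68) and highest in KO2 (1.23), and the lists of non-neural tissue are far below the wild type in KO2. In the inducible panel the widest range is that of the ventral telencephalon, from -0.47 in WT2 to 0.77 in KO3, and the members stay between -0.05 and 0.16.

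Neuronal genes in general shared part of the pattern. The 20 pan-neuronal genes, such as the microtubule protein Map1b, their most abundant, had a median difference of 0.05, 0.21 and -0.12 among wild types against -0.90, 0.93 and -0.70 among knockouts, with none called and 16 of 20 lower in the fit (median log2 fold change -0.24). Over all genes tested, 7810 of 13938 were lower in the fit. The summed level of the pan-neuronal genes was 105238, 129205 and 108842 among wild types against 66185, 196496 and 71912.5 among knockouts. The neurogenic cascade, 14 genes of newborn and committed cells led by Elavl2, had knockout medians of -0.22, 0.48 and -0.32, with 0 called by limma, 2 under the P threshold before adjustment, and a median log2 fold change of -0.19. The median of the radial glia genes, led by Vim, stayed between -0.03 and 0.29 in the knockout libraries. In that list Fabp7, a fatty acid binding protein of radial glia, was called lower, at 7955, 4447 and 4339 against 3021, 3230.5 and 2959.9. Its adjusted p was 0.779 in limma, and without WT1 the log2 fold change went from -0.80 to -0.52, under the fold threshold. The median of the cycling genes, led by Mki67, lay between -0.23 and 0.03 in the knockouts, none of the 10 called. Cajal-Retzius genes, 10 markers of the first neurons of the cortical surface led by Reln, had knockout medians of -0.05, 0.11 and -0.15 with none called. Their summed level moved more, 7249.6, 9779.9 and 6662 against 4679.6, 14863 and 4936, as did Reln itself, at 4014, 5521 and 2535 against 1187, 9593 and 1573. The 13 ventral telencephalon genes, led by Dlx1, had knockout medians of -0.07, 0.02 and -0.22, again with none called. The median log2 fold changes were 0.06 for radial glia, -0.10 for cycling, -0.05 for Cajal-Retzius and 0.01 for ventral genes, and before adjustment no gene of the last 3 lists passed the P threshold in limma.

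The genes nearest to the members by family and by function also gave 0 calls. Over all genes tested 0.667% were called lower and 2.07% higher, so a count of 0 in lists this short shows no likeness. Of 15 paralogs of the members, 14 were tested and 0 called, with a median log2 fold change of -0.10, and Nfia, the most abundant, read 5125, 5219.82 and 2776 in the wild type against 2057, 9696 and 2904 in the knockouts. Of 8 partners and targets, among them the E-proteins that pair with Neurod factors and the Tbr1 targets Reln, Auts2 and Grin2b, 0 were called (median -0.09). Of 18 other projection neuron genes, 0 were called, with a median of -0.10. At an unadjusted limma P of at most 0.05 these lists held 0, 0 and 1 genes. Some genes stand in more than 1 list: Eomes, Neurod1 and Neurod4 are both paralogs and cascade genes, Nhlh2 marks both the cascade and Cajal-Retzius cells, Reln is both a target and a Cajal-Retzius gene, and Emx2, Lhx2 and Pax6 mark both radial glia and dorsal telencephalon.

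The 5 genes outside the members whose centred log2 profile over the 6 germline libraries was closest to the mean profile of the members were Prdm8, Tmem59l, Sult4a1, C1ql3 and Kcnd3. Their root mean square differences from it were 0.15, 0.16, 0.17, 0.17 and 0.18 log2 units. Prdm8, a histone methyltransferase family protein known as a partner of Bhlhe22, read 346, 302 and 136 normalized counts among wild types against 79.6, 541 and 165 among knockouts. By the same measure Nfib (0.17) and Bcl11b (0.32) were the members nearest to their own mean, and Tle4 (0.97) and Neurod6 (0.94) the farthest. Each member is part of that mean, which lowers its difference, so these values are not comparable with those of the outside genes. Tle4 was flatter than that mean, and Neurod6 swung further in both directions.

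In the inducible comparison the members were also outside the thresholds, 0 of 9 called lower or higher, where 69 (0.490%) and 113 (0.802%) of the 14081 genes tested were called. None had an adjusted p under 0.05 in limma, which 5 of all genes had (0.0355%), and 1 member, Neurod6, had an unadjusted P of at most 0.05, against 846 of all genes. Of the 113 genes called higher, 9 lie on the Y chromosome, as do 3 of the 5 with an adjusted p under 0.05, so genotype and what these genes mark cannot be told apart in this comparison, and their bearing on the members was not tested. The spread between libraries was far smaller, with residual standard deviations from 0.08 for Tbr1 to 0.36 for Nfib beside a median of 0.10 over all genes tested. The median log2 fold change of the members was 0.04, beside -0.00 over all genes. In the fit 6 members were higher and 3 lower, where 7148 of the 14081 genes tested were lower. The library medians were 0.05 and -0.05 in the controls and 0.16, 0.02 and 0.02 in KO1, KO2 and KO3.

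The helix-loop-helix members were the ones nearest to a difference. Neurod6 stood at 1075 and 999.7 normalized counts in WT1 and WT2 and at 1774, 1492 and 1272 in KO1, KO2 and KO3. Neurod2 read 1104 and 1036 against 1441, 1194.5 and 1143. Bhlhe22 read 382 and 322 against 532, 445 and 357. For Neurod6 and Neurod2 every knockout library lay above both controls, a pattern found in 2 of 9 members and in 10.4% of all genes tested, with the reverse in 0 members and 12.2% of genes, and for Bhlhe22 KO3 lay between the controls. KO1 was the highest library for all of these genes. The log2 fold change of Neurod6 was 0.53 (fold 1.45, 95% confidence interval 0.23 to 0.83), just short of the fold threshold, with an unadjusted limma P of 0.00409 and an adjusted p of 0.716. It was 0.23 for Neurod2 (-0.01 to 0.47, adjusted p = 0.825) and 0.32 for Bhlhe22 (-0.07 to 0.72, adjusted p = 0.860). Without KO1 the log2 fold changes fell to 0.41 for Neurod6, 0.13 for Neurod2 and 0.18 for Bhlhe22. Without KO3, Neurod6 reached a log2 fold change of 0.65 and passed both thresholds, where 0.811% of all genes were called higher, with an adjusted p of 0.245. A block on the replicate number, a fit in which KO3 has no partner and drops out of the contrast, called it as well, where 0.781% of all genes were called higher. Over all settings tried, the adjusted p-values of the members lay between 0.245 and 0.999.

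The remaining members differed little. Tbr1 stood at 5117 and 5244 in the controls and at 5297, 4669 and 4829.6 in the knockouts. Bcl11b read 2925 and 2680.1 against 3121, 2412 and 3180.0, and Fezf2 1680.0 and 1840.1 against 1803, 1723 and 1199. The groups overlapped for each of these genes, and the low value of Fezf2 in KO3 was the widest departure among them. Sox5 read 2506 and 2156 against 2472, 2354 and 2354, Tle4 3491 and 2717 against 2910.3, 2894 and 3103, and Nfib 10249 and 10669 against 14759, 11588 and 8109.7. For Sox5 and Tle4 the knockouts fell between the 2 controls, while Nfib had its highest value in KO1 and its lowest in KO3. The log2 fold changes were -0.07 for Tbr1 (95% confidence interval -0.22 to 0.08), 0.04 for Bcl11b (-0.24 to 0.32), -0.18 for Fezf2 (-0.57 to 0.21), 0.04 for Sox5 (-0.13 to 0.21), -0.05 for Tle4 (-0.29 to 0.18) and 0.09 for Nfib (-0.41 to 0.59). Only the interval of Nfib reached past a 1.5-fold change, and the limma adjusted p-values ran from 0.892 for Tbr1 to 0.968 for Bcl11b.

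**Figure D3:**
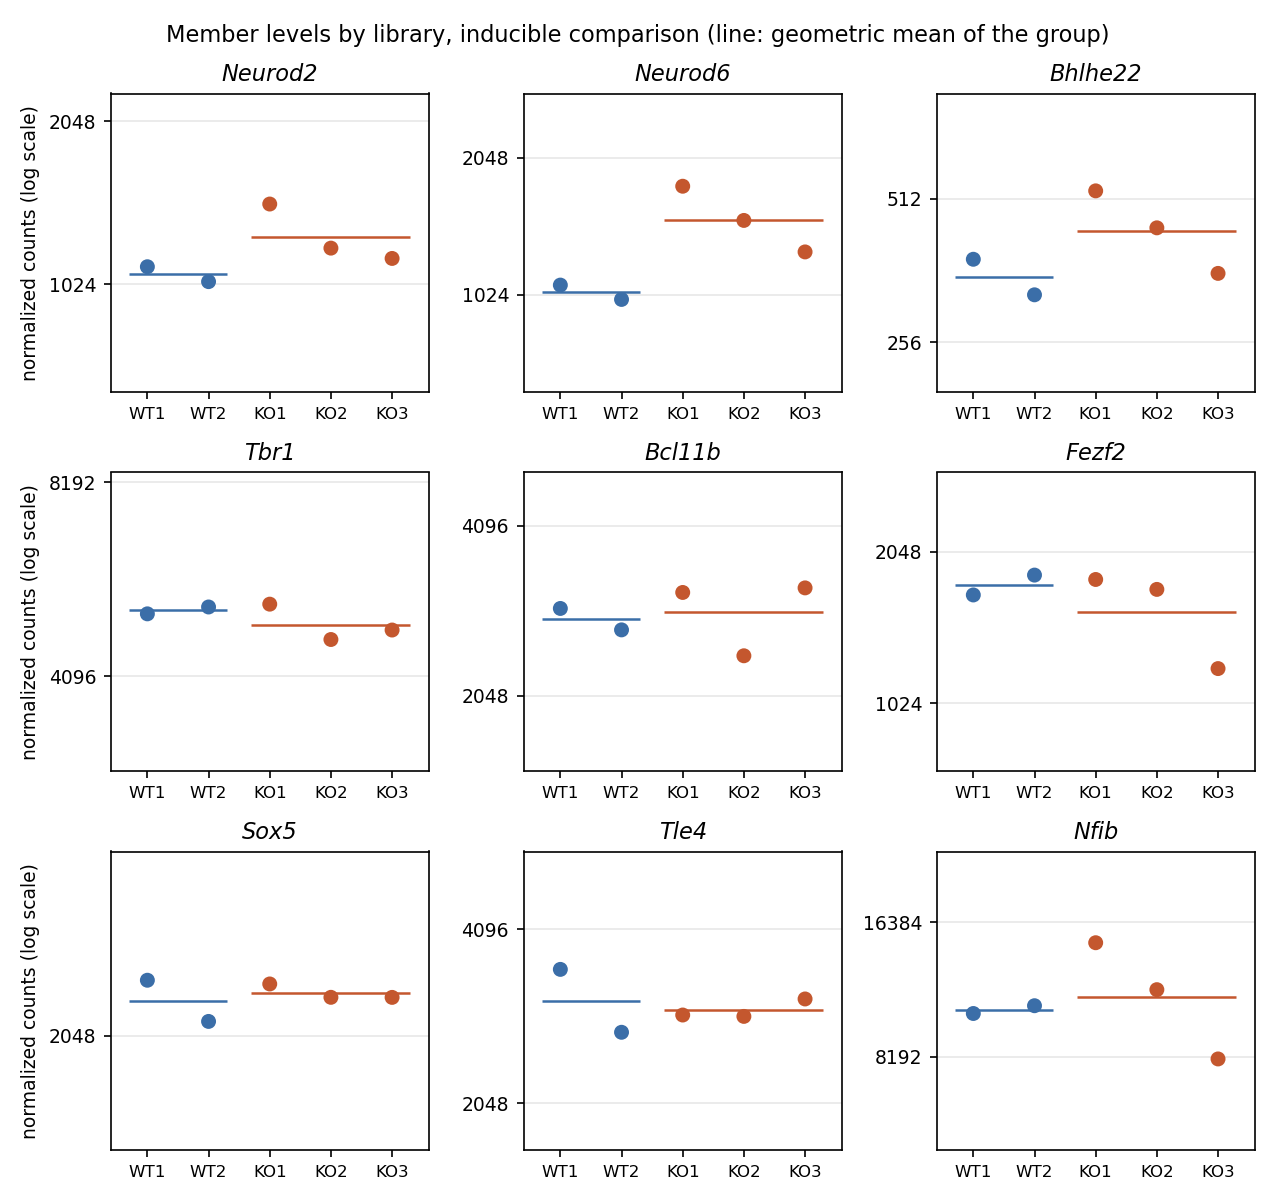
Level of each member in the 5 libraries of the inducible comparison. Each point is a library, the vertical axis gives normalized counts on a log2 scale that differs between panels, and lines mark the geometric mean of each group. The knockout points lie above both controls for Neurod2 and Neurod6 and overlap them in the other 7 panels.

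**Figure D4:**
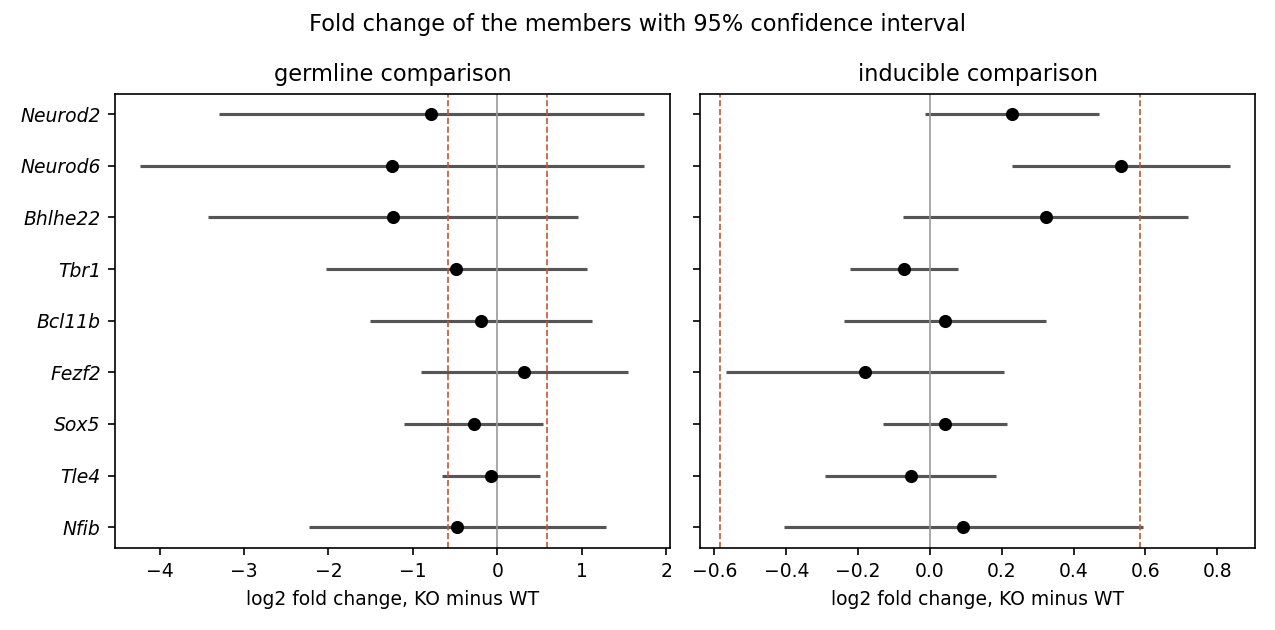
Log2 fold change of each member, knockout minus wild type, as points with 95% confidence intervals from limma, in the germline (left) and inducible (right) comparison, on different horizontal scales. Dashed lines mark a 1.5-fold change. Every germline interval contains 0, and in the inducible comparison that of Neurod6, 0.23 to 0.83, lies above it.

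Around the members, regional genes varied between the inducible libraries too. Ventral telencephalon genes summed to 13592 and 6914 normalized counts in WT1 and WT2 and to 7888, 9749 and 17364 in KO1, KO2 and KO3, with Dlx1 at 3381 and 1943 against 2069, 2422 and 4364. Nkx2-1, a ventral factor named here after its values were seen, read 1902 and 79.0 in the controls against 372, 653 and 1911. The 5 dorsal genes, led by Lhx2, summed to 26495 and 29587 against 30214, 25457 and 23914. KO3, with the highest ventral and the lowest dorsal sum, also had the lowest Fezf2 and Nfib but the highest Bcl11b. In KO3, 6 members lay above the wild-type mean. WT2, with the lowest ventral sum, was the lowest library for 5 members and the highest for 1. Whether the regional differences bear on the members was not tested.

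The other lists gave few calls in the inducible comparison. Syt4, a synaptotagmin of neuronal vesicles, was the gene called among the 20 pan-neuronal genes, at 445 and 342 in the controls against 652, 713 and 604.1 in the knockouts (log2 fold change 0.74, limma adjusted p = 0.343), and without WT2 it dropped to 0.56, under the fold threshold. The median of that list was 0.11, with 18 of 20 genes higher in the fit, where 7148 of all 14081 genes were lower. Its library medians were 0.19 and -0.19 in WT1 and WT2 and -0.05, 0.06 and 0.35 in KO1, KO2 and KO3. WT1 thus lay above KO1 and KO2. None was called among the 14 tested paralogs, led by Bcl11a (median -0.07), the 8 partners and targets, led by Tcf4 (0.04), the 18 other projection neuron genes, led by Cux1 (0.11), or the 14 cascade genes, led here by Eomes (-0.08). Before adjustment 1, 1, 5 and 1 genes of these lists passed the P threshold in limma, against 846 of all 14081. The medians were -0.03 for radial glia, -0.02 for cycling cells, -0.15 for dorsal telencephalon, -0.12 for Cajal-Retzius and 0.26 for ventral telencephalon genes, with 0 called in each. They were 0.15 for endothelium, 0.45 for microglia, -0.02 for erythroid, 0.06 for cranial mesenchyme and -0.11 for hypoxia genes, again with 0 called, and -0.02 for the 5 tested diencephalon genes, led by Lhx9. The unadjusted P threshold was passed by 3 of the 10 Cajal-Retzius genes, by 2 each of the radial glia, microglia and hypoxia genes, by 1 each of the dorsal and mesenchyme genes and by 0 of the rest.

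Levels of different genes were compared per kilobase of exon, using exon lengths of GENCODE M1. In the inducible controls the order was Tbr1 at 944 ± 16.4 normalized counts per kb (SD, n = 2), Fezf2 at 764 ± 49.1, Nfib at 699 ± 19.8 and Tle4 at 670.4 ± 118. Neurod6 followed at 482 ± 24.7, Bcl11b at 345.5 ± 21.3, Neurod2 at 340.5 ± 15.2, Sox5 at 162 ± 17.2 and Bhlhe22 at 111 ± 13.4. The ranges of Nfib and Tle4 overlapped, as did those of Bcl11b and Neurod2, and the other neighbours were apart. Fezf2 and Tle4, which are not neighbours in this order, overlapped as well. In the inducible knockouts the highest mean was that of Tbr1, 899 ± 59.5 per kb (SD, n = 3), and Nfib (768 ± 222), Neurod6 (702 ± 117), Fezf2 (684 ± 142.5) and Tle4 (641 ± 25.1) followed with ranges that each overlapped the next. The lowest means were those of Sox5 (166.5 ± 4.74) and Bhlhe22 (139.6 ± 27.4), which overlapped as well.

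The germline libraries gave no firm order. In the wild type Neurod6 had the highest mean, 1461 ± 1246 normalized counts per kb (SD, n = 3), followed by Nfib (803 ± 376), Tbr1 (529 ± 87.2), Fezf2 (415 ± 97.7), Neurod2 (372 ± 205), Tle4 (309 ± 96.5), Bcl11b (285 ± 54.5), Bhlhe22 (187 ± 112) and Sox5 (124 ± 38.3), and every pair of neighbours overlapped. In the knockouts the means ran from 1055 ± 1481 for Neurod6 to 103 ± 107 for Bhlhe22, and the single pair of neighbours with separate ranges was Tle4 (282 ± 11.5) and Sox5 (106 ± 49.99).

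The members lie on 8 chromosomes of NCBIM37 (mm9), with Sox5 and Neurod6 far apart on chromosome 6. Neurod6 (chr6:55627812-55631257), Neurod2 (chr11:98186729-98190962), Bhlhe22 (chr3:17954325-17957509) and Fezf2 (chr14:13174406-13178379) are compact genes of 3.45, 4.23, 3.19 and 3.97 kb. Tbr1 (chr2:61640987-61652171) spans 11.2 kb, Bcl11b (chr12:109148613-109241812) 93.2 kb and Tle4 (chr19:14522562-14672473) 149.9 kb. Nfib (chr4:81936077-82351654) spans 416 kb and Sox5 (chr6:143776945-144730497) 954 kb. All are protein-coding in GENCODE M1, Tbr1 and Bhlhe22 on the plus strand and the others on the minus strand.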

How the data were processed

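Values from 11 libraries in 2 tables were used, with groups and replicate numbers taken from the sample labels. For the deposited tables, the authors used TopHat against mm9, version 1.2.0 by the submitters' notes, though the methods text names another. RefSeq exons were the counting units, and edgeR was the authors' tool for normalization, which takes the bulk of genes as unchanged. The deposited signal is the resulting normalized counts per gene, without division by length; being fractional, it was not given to a count model, and sampling depth cannot be read from it. Totals per library were 13048716 to 15551274 in the germline and 24118520 to 24497307 in the inducible table. No column of values was left unused.

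Log2(normalized count + 1) was fitted per table in R 4.3.3 with limma 3.58.1 (lmFit, then eBayes with trend; two-sided), without a block, over genes with a mean of at least 10, and checked on simulated data. Adjusted p-values are Benjamini-Hochberg over all genes tested. The scale understates changes of low genes. The design allowed division by a length from the files; they give none, so lengths came from GENCODE M1, a choice made after seeing the data, which matched 93.0% of genes and all 9 members. The 17 lists, the members included, and the members themselves were chosen with earlier results of these data known. Genes named are the members, Kif20a, list genes past both thresholds, the most abundant gene of most lists, the 5 genes closest in profile, and a few marked in the text as named after their values were seen. Some further genes are named as examples of a list, as a relative or copy of a named gene, or for standing in more than 1 list. Irx2, Gbx2 and Car9 are named, after their values were seen, because they passed the filter only through knockout libraries. Alternatives were pseudocounts of 0.5 and 10, no filter, a mean of at least 50, quantile normalization, median centring, library weights, a replicate block and leaving out each library.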

Additional observations from a re-analysis of the deposited data

Results flagged for a closer look

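The hypoxia genes are listed here because their median lay above the wild-type mean in every germline knockout library (2.45, 3.04 and 0.28 in KO1, KO2 and KO3) and slightly below it in every inducible one (-0.20, -0.13 and -0.09). The inducible controls themselves stood at -0.12 and 0.12, so the inducible values lie about the lower control. The median log2 fold change was 1.83 for the germline knockout and -0.11 for the inducible one, where 0 of 10 genes were called by limma and 2 passed the P threshold before adjustment. The germline medians were taken over 11 genes and the inducible ones over 10. Adm and Car9 entered the germline medians only through the knockouts, which lifted them past the filter on low values. The same placement on either side of the wild-type mean, library by library, held for Bnip3 (2.54 and -0.20), P4ha1 (1.79 and -0.11), Pdk1 (1.79 and -0.23) and Slc2a1 (1.88 and -0.24). In the inducible comparison the groups overlapped for Bnip3, P4ha1 and Pdk1 and not for Slc2a1. The other 5 genes called in the germline did not meet this rule: inducible log2 fold changes were 0.50 for Adm, 0.09 for Vegfa, 0.03 for P4ha2, -0.02 for Ankrd37 and -0.11 for Ldha. The difference between the comparisons was not tested, since the tables were normalized separately. None of the 9 members met the library-by-library rule, although the fitted direction differed between the comparisons for 7 of them.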

How the results depend on the processing

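In the germline comparison, 93 lower and 289 higher genes became 180 lower genes without a filter, and 484 and 560 with library weights, which also called 5 members lower. Leaving out 1 library at a time gave 42 to 642 lower and 115 to 617 higher genes, 0 to 7 members lower, and a member median between -1.29 and 0.13. The log2 fold change then ranged from -1.29 to 0.15 for Tbr1, -0.90 to 0.20 for Bcl11b, -0.31 to 0.75 for Fezf2, -0.37 to 0.0837 for Tle4, -2.0 to 0.22 for Neurod2 and -1.33 to 0.13 for Nfib, so their direction rests on single libraries. Sox5 (-0.64 to -0.05), Neurod6 (-2.57 to -0.19) and Bhlhe22 (-2.11 to -0.36) kept their sign but not their size. Fezf2 was -0.16 with library weights. Over all settings the limma adjusted p of a member lay between 0.134 and 0.998.

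In the inducible comparison, 69 lower and 113 higher genes became 145 and 212 without a filter, 33 and 39 with a mean of at least 50, and 38 and 42 per GENCODE length, a setting added after seeing the data; the last settings test fewer low genes. Leaving out libraries gave 44 to 89 lower and 80 to 250 higher genes, 0 to 1 members called higher, and a member median of -0.0211 to 0.13. A group left with 1 library is assumed to vary like the other. The ranges were -0.0291 to 0.17 for Bcl11b, -0.29 to 0.00385 for Fezf2, -0.0666 to 0.15 for Sox5, -0.23 to 0.13 for Tle4 and -0.11 to 0.32 for Nfib; Neurod2 (0.13 to 0.29), Neurod6 (0.41 to 0.65) and Bhlhe22 (0.18 to 0.47) stayed higher. Bcl11b was -0.10 with library weights. Adjusted p-values of members lay between 0.245 and 0.999.

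Replicate numbers did not clearly pair the libraries. Same-numbered germline libraries deviated together with r = -0.12, 0.31 and 0.25 across genes, and differently numbered ones with values from -0.36 to 0.33. Same-numbered inducible libraries gave -0.35 and -0.05. Deviations of the 2 inducible controls from their mean are opposite by construction, so these values cannot show whether pairs exist. With the replicate block, germline calls were 98 and 278 with 0 members, and inducible calls 53 and 110 with 1 member, Neurod6 (0.65), called higher, where 0.781% of genes were; Bcl11b was -0.0291 and Fezf2 0.00385. That inducible fit sets KO3 aside, which has no partner. Pseudocounts, quantile normalization and median centring called no member in either comparison. The causes were not tested. Division by a length from the files was not run, since they give none.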
